A study of Mus musculus with 16 samples.

Results

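The genes described here run the carnitine shuttle and the first step of mitochondrial fatty acid oxidation. They were chosen by name (Cpt1a, Cpt1b, Cpt1c, Cpt2, Crat, Crot, Slc25a20, Acadl, Acadm and Acadvl), and every probe set whose single gene symbol in the platform annotation is one of these 10 was taken. This gave 17 probe sets for 9 genes, of 18194 genes with a probe set of their own on the array. Cpt1b has no such probe set, because the single probe set that lists it is shared with 2 other genes, and no value is given for it. The choice was made with the calls of Cpt2 and Crat in the 2 brain parts and the 2 genotypes known. For these 17 probe sets the brain part and genotype comparisons are therefore a description of values that selected them, with no test, and only the sexes were compared by a test.

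The 16 arrays come from C57BL/6J mice in 8 groups of 2: KO and WT, cerebellum and rest of brain (the brain without its cerebellum), female and male. KO mice are homozygous for a small CRISPR deletion just after the start codon in a SINE, a short interspersed element, of the brain-specific SSR-SINE-exon 2 transcript of Ppargc1a. They descend from 1 founder line, and the controls are their WT littermates. The ages for the arrays are not given, and the labels do not say whether arrays of the same number share an animal, so that p-values measure only the spread between these samples. The table holds only 5 distinct numbers, and these were read as detection calls: detected, marginal, or not detected for the 3 lowest. No source used here states this reading. It rests on genes of known behaviour: the 5 Actb and 3 Gapdh probe sets were detected on all 16 arrays, and both probe sets of the Y-linked Eif2s3y on 8 male arrays and 0 female arrays. A call carries no level, and equal calls do not exclude a difference in amount.

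Long-chain fatty acids cannot cross the inner mitochondrial membrane as acyl-CoA. Carnitine palmitoyltransferase 1, on the outer membrane, moves the acyl group to carnitine, the carrier encoded by Slc25a20 exchanges acylcarnitine for free carnitine across the inner membrane, and Cpt2, on the inner side, makes acyl-CoA again. Acyl-CoA dehydrogenases for very long (Acadvl), long (Acadl) and medium (Acadm) chains then begin each round of oxidation, while Crat and Crot join carnitine to acetyl and medium-chain acyl groups and help carry products out of mitochondria and peroxisomes. In the brain this pathway is used mostly by astrocytes, and PGC1α, the product of Ppargc1a, is a known coactivator of its genes in other tissues.

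Whole-array detection ranged between 25517 and 28155 probe sets, and 2 arrays stood apart from their brain part in some of its markers. In bulk tissue, fewer cells of a type and less RNA per cell cannot be told apart. Of the 25 granule and Purkinje cell marker probe sets, KO rest-of-brain female replicate 1 detected 21, against 12 to 19 on the other rest-of-brain arrays, while WT cerebellum female replicate 2 detected 16, against 23 to 25 on the other cerebellum arrays. Pcp2, which defines Purkinje cells, was detected by 3 of 3 probe sets on KO rest-of-brain female replicate 1 and by 1 of 3 on WT cerebellum female replicate 2. KO rest-of-brain female replicate 1 detected 11 of 11 Purkinje cell probe sets, and WT rest-of-brain male replicate 2 detected 9. It did not stand apart in granule cell markers. Both of these arrays detected 10 of 14 granule cell probe sets and 2 of 2 for the granule cell gene Gabra6. Of 10 forebrain marker probe sets, WT cerebellum female replicate 2 detected 6 and the other cerebellum arrays 3 or 4, while every rest-of-brain array detected 8. The forebrain gene Emx1 was detected on 0 of 8 cerebellum arrays and by 1 of its 2 probe sets on all 8 rest-of-brain arrays.

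Most of the pathway was detected throughout. Of the 17 probe sets, 11 (64.7%) were detected on all 16 arrays, 5 (29.4%) on some arrays and 1 (5.88%) on no array. Over all 45101 probe sets the shares were 48.0%, 25.0% and 27.0%. By gene, 8 of the 9 measured genes were detected on each of the 16 arrays by at least 1 probe set, and Cpt2 was the exception. The share was 59.6% of all 18194 genes, where the probe set need not be the same on each array. The map of calls shows that the varying calls belong to Cpt2, Crat and Acadl.

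**Figure D1:**
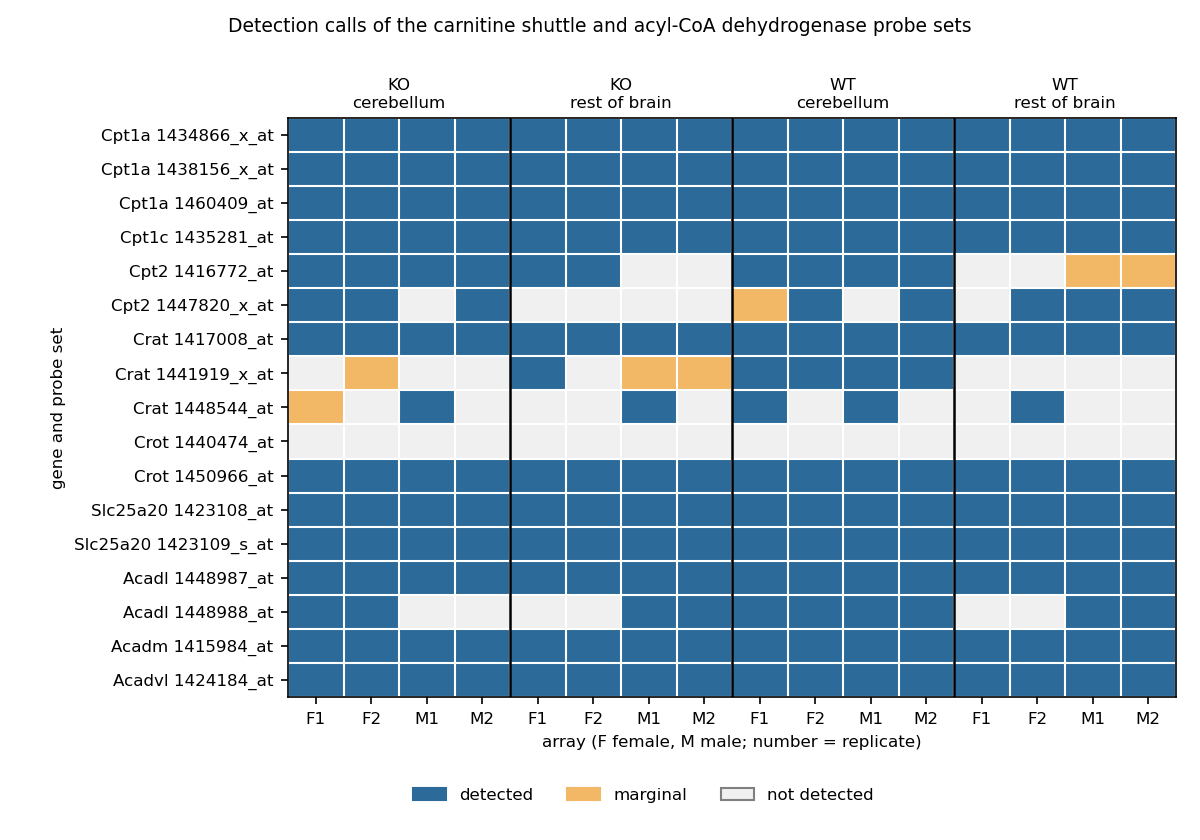
Detection calls of the 17 probe sets (rows, by gene and probe set name) on the 16 arrays (columns, by genotype, brain part, sex and replicate), with blue for detected, orange for marginal and grey for not detected. 11 rows are blue on all 16 arrays, 1 is grey on all 16, and 5 vary.

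The promoters of Cpt2 and Acadl, whose calls varied, are shown with that of Acadm because PGC1α acts on many oxidation genes through estrogen-related receptors, which bind AAGGTCA. They are RefSeq windows of 300 bases on GRCm38.p6, 250 before and 50 after the start site, and 8 of the 10 genes matched a window. Crat, whose calls also varied, and Cpt1b had no window and were not searched. Acadm (chr3:153944594-153944893, minus strand) holds AAGGTCA, in capitals and read on the opposite strand as TGACCTT, beginning 249 bases before the start site. Acadl (chr1:66863260-66863559, minus strand) and Cpt2 (chr4:107923540-107923839, minus strand) hold GGGCGG, the GC box bound by Sp1, also in capitals and read as CCGCCC in Acadl.
Acadm: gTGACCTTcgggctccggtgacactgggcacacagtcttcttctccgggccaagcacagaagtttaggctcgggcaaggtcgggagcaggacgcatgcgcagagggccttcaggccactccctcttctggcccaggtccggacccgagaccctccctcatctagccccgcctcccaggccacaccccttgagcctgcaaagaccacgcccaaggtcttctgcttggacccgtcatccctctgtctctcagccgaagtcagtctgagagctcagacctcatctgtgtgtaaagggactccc
Acadl: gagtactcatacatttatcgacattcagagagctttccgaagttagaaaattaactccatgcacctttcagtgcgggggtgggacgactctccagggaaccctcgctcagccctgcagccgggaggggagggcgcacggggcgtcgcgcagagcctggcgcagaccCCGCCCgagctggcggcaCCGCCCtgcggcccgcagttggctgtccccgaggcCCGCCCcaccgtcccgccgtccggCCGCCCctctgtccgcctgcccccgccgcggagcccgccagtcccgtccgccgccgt
Cpt2: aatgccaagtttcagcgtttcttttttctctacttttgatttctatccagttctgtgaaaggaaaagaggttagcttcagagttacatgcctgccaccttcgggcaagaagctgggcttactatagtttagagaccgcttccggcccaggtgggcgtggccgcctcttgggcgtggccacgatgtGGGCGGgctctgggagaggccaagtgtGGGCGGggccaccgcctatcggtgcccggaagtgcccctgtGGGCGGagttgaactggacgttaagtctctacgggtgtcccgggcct
On either strand, AAGGTCA was in 1 of the 8 matched promoters, that of Acadm, and in 4.72% of all 32851 windows of this length. GGGCGG was in 6 of 8 (Acadl, Cpt1a, Cpt1c, Cpt2, Crot and Slc25a20), with 4 matches in Acadl and 3 in Cpt2, and in 35.7% of all windows. The direct repeat bound by PPAR with its partner RXR, searched as 2 copies of AGGTCA parted by any 1 base, was in 0 of 8 and in 0.0396% of all windows. Acadm, the 1 gene with AAGGTCA, was detected on all 16 arrays in both genotypes.

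The entry enzymes did not vary in their calls. All 3 probe sets of Cpt1a, the carnitine palmitoyltransferase 1 of liver and many other tissues, were detected on all 16 arrays, and so was the 1 probe set of Cpt1c, the neuronal form, which lies in the endoplasmic reticulum and has little catalytic activity. Of the Cpt1a probe sets, 2 carry an x in their names, which marks probes that may also bind other transcripts. The third, 1460409_at, does not. Both probe sets of the carrier Slc25a20 were detected on all 16 arrays. No array and no group therefore lacked a call for the outer membrane step or for transport across the inner membrane.

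Cpt2 varied in both of its probe sets. Probe set 1416772_at was detected on 10 of 16 arrays: 8 of 8 from cerebellum and 2 of 8 from rest of brain. In the rest of brain the 2 detected arrays were both from KO females. The 2 KO male arrays were not detected, the 2 WT female arrays were not detected and the 2 WT male arrays were marginal. The cerebellum arrays were thus alike in all 4 groups, and every difference in this probe set lay in the rest of brain. Detected on all 4 cerebellum arrays and no rest-of-brain array, it was 1 of 68 such probe sets in WT (0.151% of 45101), and in males it was 1 of 269 (0.596%). Without the 2 arrays that stood apart in their markers it was detected on 7 of 7 cerebellum and 1 of 7 rest-of-brain arrays. With marginal calls counted as detected, it was seen on 8 of 8 cerebellum and 4 of 8 rest-of-brain arrays. Between the genotypes it was detected on 6 of 8 KO arrays and 4 of 8 WT arrays, and on 6 of 8 in each with marginal calls counted.

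The second Cpt2 probe set, 1447820_x_at, did not follow the first. It was detected on 8 of 16 arrays: 5 of 8 from cerebellum and 3 of 8 from rest of brain. In KO it was detected on 3 of 4 cerebellum arrays and on 0 of 4 rest-of-brain arrays. In WT it was detected on 2 of 4 cerebellum arrays, with 1 more marginal, and on 3 of 4 rest-of-brain arrays. On the KO female rest-of-brain arrays both were detected by 1416772_at and neither by 1447820_x_at. On the WT male rest-of-brain arrays both were detected by 1447820_x_at and marginal by 1416772_at. The x in the name of 1447820_x_at again marks probes that may bind other transcripts.

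Crat, which makes acetylcarnitine from acetyl-CoA, has 3 probe sets with 3 different behaviours. Probe set 1417008_at was detected on all 16 arrays. Probe set 1448544_at, annotated to the same sequence record, was detected on 5 of 16: 2 of 8 KO and 3 of 8 WT arrays, or 3 of 8 from cerebellum and 2 of 8 from rest of brain. These 5 arrays were spread over 5 groups, and in no group were both replicates detected.

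The third Crat probe set, 1441919_x_at, gave the clearest genotype pattern. In the cerebellum it was detected on 0 of 4 KO arrays, with KO female replicate 2 marginal, and on 4 of 4 WT arrays, 2 female and 2 male. Such a pattern within the cerebellum, all 4 WT arrays and no KO array, was shared by 13 of 45101 probe sets (0.0288%). In the rest of brain the order turned, with 1 of 4 KO arrays detected and 2 more marginal, and 0 of 4 WT arrays detected or marginal. The 1 detected KO array was female replicate 1, which carried more cerebellar markers than the other rest-of-brain arrays. Without the 2 arrays that stood apart, the probe set was detected on 0 of 4 KO and 3 of 3 WT cerebellum arrays, and on 0 of 3 KO and 0 of 4 WT rest-of-brain arrays. Counting marginal calls as detected, it was seen on 1 of 4 KO and 4 of 4 WT cerebellum arrays and on 3 of 4 KO and 0 of 4 WT rest-of-brain arrays. In total it was then seen on 4 of 8 KO and 4 of 8 WT arrays. Of the 3 Crat probe sets only this one, with the x suffix, gave the pattern, and 1417008_at was detected on every KO and WT array.

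Across all probe sets, 0 of 3873 (0.0%) were called between KO and WT by Fisher's exact test (two-sided, Benjamini-Hochberg adjusted p under 0.05), and 38 had an unadjusted p under 0.05. The 3873 are those detected on 5 to 11 arrays, the only ones that 8 against 8 arrays can bring under an unadjusted 0.05. The same test called 662 probe sets (17.1%) between cerebellum and rest of brain, of which 215 were detected more often in cerebellum and 447 less often. With the adjustment over all 45101 probe sets it called 0 in both comparisons. Between KO and WT 0 probe sets had the smallest p that 8 against 8 arrays allow, 0.000155. That p passes the adjustment where 13 probe sets share it, or where enough others also have small p-values. A few genes that switched completely, without many others at small p-values, would therefore not have been called.

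Crot, the peroxisomal carnitine octanoyltransferase, gave no varying call. Probe set 1450966_at was detected on all 16 arrays and 1440474_at on none. Among the dehydrogenases, the single probe sets of Acadvl and Acadm were detected on all 16 arrays, as was 1448987_at of Acadl.

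The other Acadl probe set, 1448988_at, is annotated to the same sequence record and was detected on 10 of 16 arrays, with no marginal call. As with Cpt2 1416772_at, the 2 replicates of every group had the same call. In the cerebellum both KO female arrays and neither KO male array were detected, and all 4 WT arrays, female and male, were detected. In the rest of brain 0 of 4 female and 4 of 4 male arrays were detected, 2 KO and 2 WT in each sex. Detection on all 4 male and no female rest-of-brain array was seen for 18 of 45101 probe sets (0.0399%), and the reverse for 37 (0.082%). Only 25.0% of the 45101 were detected on some arrays and not others, which lowers all shares of this kind. Within the rest of brain Fisher's exact test gave 1448988_at p = 0.0286, the smallest that 4 against 4 arrays allow. Its adjusted p from this test was 0.396 over the 763 probe sets tested there. In females it was detected on 4 of 4 cerebellum and 0 of 4 rest-of-brain arrays, as 1 of 89 such probe sets (0.197%). Without the 2 arrays that stood apart these counts were 0 of 3 female and 4 of 4 male rest-of-brain arrays, and 3 of 3 female cerebellum arrays. By genotype the counts were 4 of 8 KO and 6 of 8 WT arrays.

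The comparison of the sexes over all 16 arrays could hardly have called any of these probe sets. The smallest p that 8 against 8 arrays allow, 0.000155, does not pass the adjustment by itself. It passes where 13 probe sets share it, or where enough others also have small p-values. Between the sexes 10 had it, among them both probe sets of Eif2s3y, detected on 0 of 8 female and 8 of 8 male arrays, and even this known difference was not called (Fisher's exact test, adjusted p = 0.0602). The counts of 0 therefore say nothing of whether the sexes differ. Fisher's exact test called 0 of 3873 probe sets (0.0%) between female and male arrays, with 129 at an unadjusted p under 0.05, and 0 of the 5 varying probe sets described here. Cpt2 1416772_at was detected on 6 of 8 female and 4 of 8 male arrays (exact p = 0.608, adjusted p = 1.0). Acadl 1448988_at was detected on 4 of 8 female and 6 of 8 male arrays (exact p = 0.608, adjusted p = 1.0). The other 3 differed by at most 1 array, each with an exact p of 1.0.

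Per array, the 5 varying probe sets add up to different totals. KO cerebellum arrays detected 2 or 3 of them, 3 on both female and 2 on both male arrays, against 4 on each of the 4 WT cerebellum arrays. KO rest-of-brain arrays detected 1 or 2, and WT rest-of-brain arrays 0 to 2. With the constant probe sets this made 13 or 14 of 17 in KO cerebellum and 15 of 17 in WT cerebellum. It made 12 or 13 in KO rest of brain and 11 to 13 in WT rest of brain. The difference between the cerebellum totals includes Crat 1441919_x_at, whose calls helped to select these genes. Without it the KO cerebellum arrays detected 3, 3, 2 and 2 of the other 4 probe sets and each WT cerebellum array 3, so the totals overlap.

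**Figure D2:**
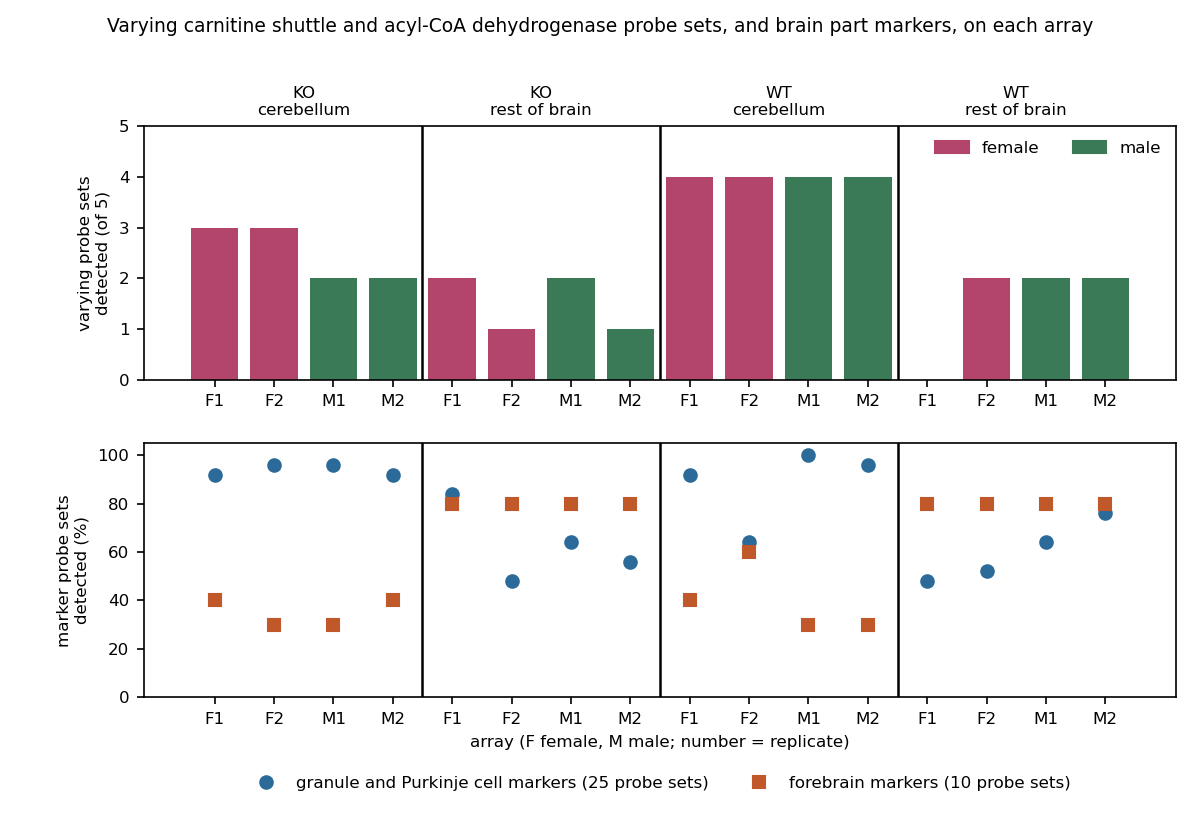
Upper panel, number of the 5 varying probe sets detected on each array (bars, by sex), and lower panel, share of marker probe sets detected in percent (circles, granule and Purkinje cells, 25 probe sets; squares, forebrain, 10 probe sets), with arrays by genotype, brain part, sex and replicate. KO cerebellum arrays reach 2 or 3 and WT cerebellum arrays 4, and WT cerebellum female replicate 2 and KO rest-of-brain female replicate 1 lie apart from their brain part in the lower panel.

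Other markers moved with some of these groups, and their part in the calls was not tested. Of 11 hindbrain and brain stem marker probe sets, 9 and 8 were detected on the KO female cerebellum arrays, 3 and 0 on the WT female ones, and 0 on all 4 male cerebellum arrays of both genotypes. Acadl 1448988_at was detected on both KO female, neither KO male and all 4 WT cerebellum arrays. Crat 1441919_x_at was not detected on any KO cerebellum array, female or male. The thalamus and midbrain markers, 1 of several lists examined, split the cerebellum arrays by genotype as Crat 1441919_x_at did. Of 22 probe sets, 14, 15, 14 and 14 were detected on the KO arrays and 16 on each of the 4 WT arrays. They did not split the rest-of-brain arrays, with 16, 17, 16 and 16 on KO and 17, 15, 15 and 16 on WT arrays. Nor did this list separate the brain parts, with 14 to 16 on cerebellum and 15 to 17 on rest-of-brain arrays. Its counts therefore do not show how much thalamus or midbrain tissue an array held. In the rest of brain, where Acadl 1448988_at followed sex, female arrays detected 21, 12, 12 and 13 of the 25 granule and Purkinje cell marker probe sets, and male arrays 16, 14, 16 and 19. Astrocyte markers, from the cells that oxidize most fatty acid in brain, were detected by 22 or 23 of 24 probe sets on cerebellum arrays and by 22 of 24 on all rest-of-brain arrays.

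The targeted gene was detected throughout. All 5 probe sets of Ppargc1a were detected on all 8 KO and all 8 WT arrays. They do not check the genotype labels, because a small deletion need not remove a transcript, and where the probes lie relative to it was not examined. The probe set of its relative Ppargc1b was also detected on all 16 arrays. Esrrg, an estrogen-related receptor active in neurons, was detected on all 16 by 2 probe sets and on none by 1. Esrra was detected on all 16 by 1460652_at, and by 1442864_at on 6 of 8 KO and 7 of 8 WT arrays, missing on both KO male cerebellum arrays and 1 of 2 WT male ones. Ppara, the fatty acid sensor of liver, was detected on no array by 2 probe sets and on 13 of 16 by 1457721_at, on 6 of 8 KO and 7 of 8 WT arrays.

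The wider pathway was mostly detected as well. Of 79 genes in 6 lists, 74 had a probe set of their own. By at least 1 probe set, not always the same one, 62 of these were seen on all 16 arrays, 9 on some and 3 on none. In probe sets, 102 of 153 (66.7%) were detected on all 16 arrays, 29 (19.0%) on some and 22 (14.4%) on none. Ketone body metabolism was at one end, with 9 of 9 probe sets on all arrays, and carnitine synthesis at the other, with 6 of 16 on all and 8 of 16 on some. Of the other mitochondrial enzymes of beta-oxidation 28 of 35 probe sets were on all arrays, and of peroxisomal beta-oxidation 19 of 28. The uptake and activation list had 18 of 24 probe sets on all arrays, and the regulators 22 of 41.

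**Figure D3:**
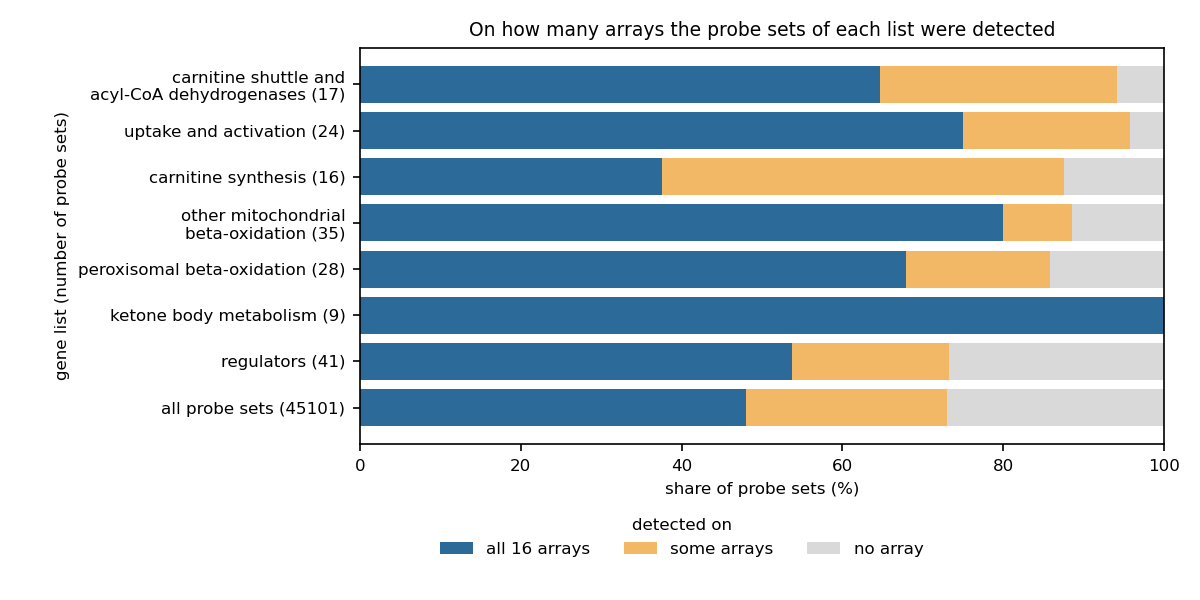
Share of probe sets (percent) detected on all 16 arrays, on some and on none, for the carnitine shuttle and acyl-CoA dehydrogenase genes, 6 wider lists and all 45101 probe sets, with the number of probe sets in brackets. The genes described here reach 64.7% on all arrays, against 48.0% of all probe sets, and carnitine synthesis has 50.0% on some arrays.

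Only 10 of the 153 probe sets could be tested at 8 against 8 arrays, and 0 of these 10 were called between KO and WT, between cerebellum and rest of brain, or between the sexes. The background for the brain parts was 17.1%, and the limits of the test given for the sexes and genotypes hold here too. The 2 smallest p-values, named after the calls were seen, were both between the brain parts. Bbox1, the last enzyme of carnitine synthesis, was detected by 1419618_at on 8 of 8 cerebellum and 3 of 8 rest-of-brain arrays, and Acsl4, which activates arachidonate, by 1451828_a_at on 3 of 8 cerebellum and 8 of 8 rest-of-brain arrays. Each had an exact p of 0.0256 and an adjusted p of 0.0944. Leaving out 1 array brought 1 of these adjusted p-values under 0.05 in 6 of 16 cases. Acsl4 passed without WT cerebellum female replicate 2 or either WT cerebellum male array. Bbox1 passed without either KO rest-of-brain male array or WT rest-of-brain male replicate 1. The 3 rest-of-brain arrays with Bbox1 1419618_at detected were all male, and the 3 cerebellum arrays with Acsl4 1451828_a_at detected were all WT. The other Bbox1 probe set, 1459030_at, was detected on 8 of 8 cerebellum and 6 of 8 rest-of-brain arrays. By any of its 3 probe sets, Acsl4 was detected on all 16 arrays.

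**Figure D4:**
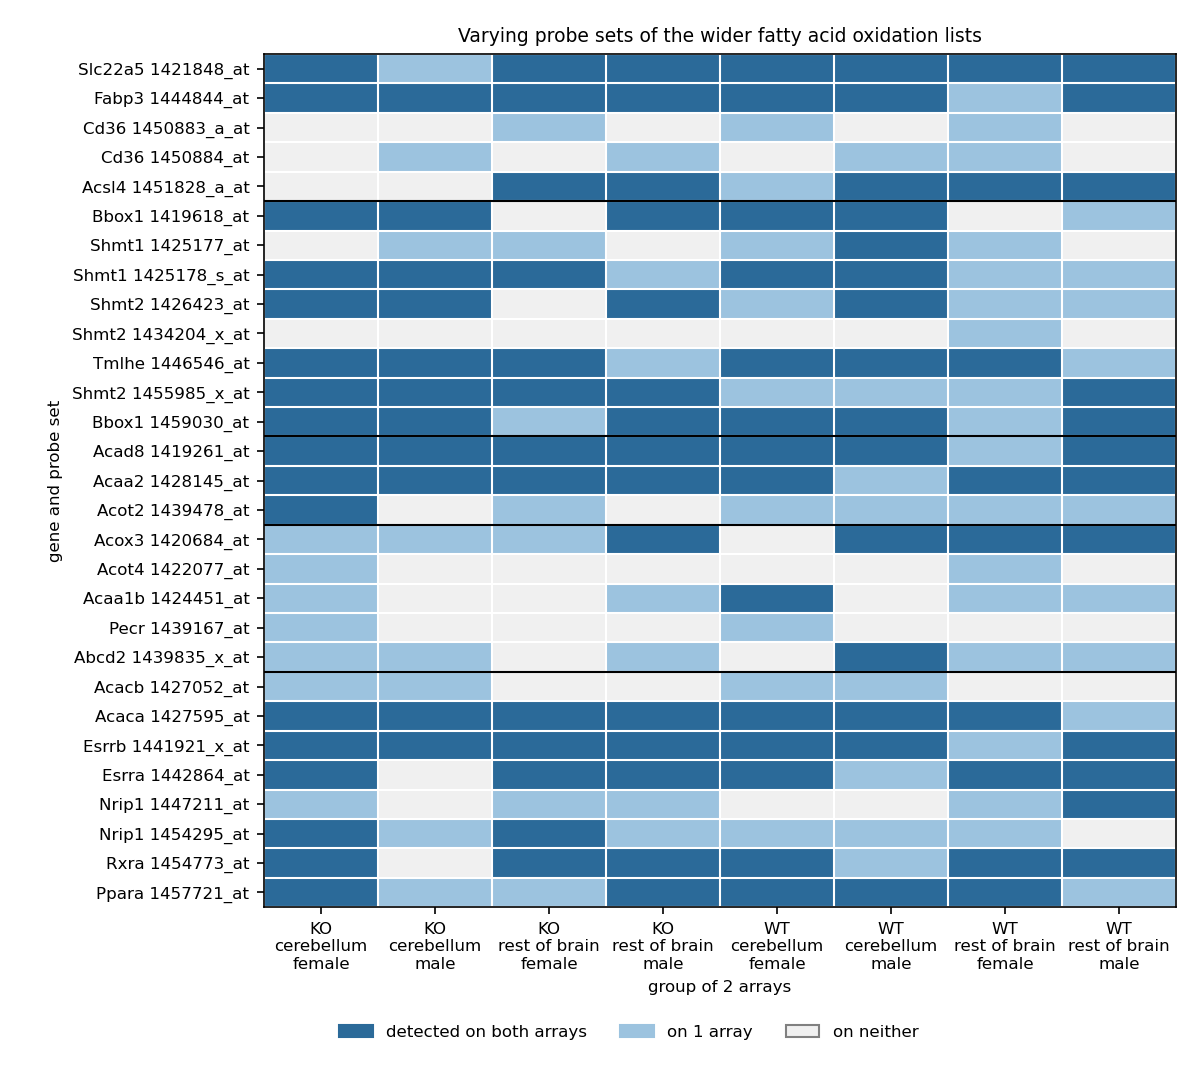
The 29 varying probe sets of the wider lists (rows, by gene and probe set name, lists parted by lines) in the 8 groups of 2 arrays (columns), in dark blue where both arrays were detected, light blue where 1 was and grey where neither was. Bbox1 1419618_at is dark in all 4 cerebellum groups and also in KO rest-of-brain males. Acsl4 1451828_a_at is dark in all 4 rest-of-brain groups and also in WT cerebellum males.

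The genes most like the varying Cpt2 and Crat probe sets were found by counting the arrays with the same call. Mrpl3, a protein of the mitochondrial ribosome, had the same call as Cpt2 1447820_x_at on 14 of 16 arrays, more than any other gene. Colgalt2 had the same call as Crat 1441919_x_at on 15 of 16 arrays. For Crat 1448544_at, 5 genes matched on 15 of 16 arrays, of which the first 3 by name were Alpi, Cfc1 and Dnajc18. For Cpt2 1416772_at, 21 probe sets matched on 15 of 16 arrays and none is named. With 45101 probe sets, matches of this kind are a description only.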

How the data were processed

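RNA of cerebellum or rest of brain was amplified with the Affymetrix 3′ IVT Plus kit. For the signal processing by the authors, the methods and the submitters' notes give MAS5, the results RMA. The probe sets are those of a mouse array, although a human one is named. The deposited values hold 5 distinct levels, treated as other values and not as log2 signal. The highest (59.7% of values) was read as detected and the next (1.51%) as marginal. Fold changes were not analysed here.

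Calls were compared by two-sided Fisher's exact tests, 8 against 8 arrays, adjusted after Benjamini-Hochberg over the 3873 probe sets able to reach an unadjusted 0.05. Alternatives were an adjustment over all 45101, marginal calls as detected, the 2 lowest levels left out, each array left out, a replicate block, 1 brain part alone, other probe set choices and, chosen after seeing the data, leaving out 2 arrays with unusual markers. Tests were checked on simulated calls with no difference or with many probe sets different at once, which does not measure the power for a few. The genes and lists were chosen with earlier results of these data known. Named are all 10 genes, list members called, Ppargc1a, Ppargc1b, Esrra, Esrrg, Ppara and up to 3 genes most alike in calls. The number of arrays limits the precision. Python 3.11.15, numpy 2.4.6, pandas 2.3.3, scipy 1.17.1, statsmodels 0.14.6 and matplotlib 3.10.9 were used.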

Additional observations from a re-analysis of the deposited data

Results flagged for a closer look

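In KO mice the brain parts of females and males had opposite calls for Acadl 1448988_at. In KO females both cerebellum arrays and neither rest-of-brain array were detected, and in KO males neither cerebellum array and both rest-of-brain arrays. The cerebellum minus rest-of-brain difference of females less that of males was 4 arrays, and the female minus male difference in cerebellum less that in the rest of brain was likewise 4 arrays. Every array of one sex moved against every array of the other, and the difference was not tested, since 2 against 2 arrays cannot give an exact p below 0.333. In WT mice both cerebellum groups were detected, so the opposite calls were not seen there. The KO cerebellum groups also differed in the 11 hindbrain and brain stem marker probe sets. KO female arrays detected 9 and 8 of them and KO male arrays 0, against 3 and 0 on WT female and 0 on WT male cerebellum arrays. The part of this difference in the calls was not tested. The other Acadl probe set, 1448987_at, was detected on all 16 arrays.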

How the results depend on the processing

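The counts of 11 probe sets detected on all arrays and 5 on some kept their values without each array in turn (11 to 11 and 5 to 5), with marginal calls counted as detected and without the 2 arrays with unusual markers. Without the probe sets whose names carry an s or x, 3 varied, from fewer items counted. With genes as the unit 1 did, because a gene counted as detected on an array where any of its probe sets was. Of all probe sets, 662 were called between the brain parts, 705 to 986 without 1 array, and 0 with the adjustment over all 45101. Between KO and WT and between the sexes 0 were called under each alternative (0 to 0 without 1 array). This is no sign of stability. In the main run even the smallest p needed 13 probe sets to share it, or enough others at small p-values, to pass. Within 1 brain part, Fisher's exact test of the sexes cannot go below an unadjusted p of 0.0286. With a replicate block (an exact McNemar test on same-numbered arrays) 759, 0 and 0 were called between brain parts, genotypes and sexes. Same-numbered deviations correlated between -0.076 and 0.072 over 28 pairs of groups, which gave no sign of pairing. With calls that carry no level and 2 arrays per group, this cannot exclude that same-numbered arrays share an animal. Counting marginal calls as detected took the KO minus WT difference of Cpt2 1416772_at and of Crat 1441919_x_at to 0.0 percent of arrays, against 25.0 and -37.5. Without the 2 arrays with unusual markers, the female minus male difference of Crat 1441919_x_at was -8.33 percent of arrays, against 12.5 with them, and this was the 1 of the 15 differences computed that reversed under any alternative. The cause was not tested. Calls give no level, so the signal over background behind each one is unknown here.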
